A study of Ovis aries with 12 samples.

Results

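The cytosolic ribosomal protein genes encode the proteins of the ribosome, and they were followed here in a back muscle, the longissimus dorsi, of Tan sheep fed succinate. Members were chosen by symbol: every gene whose name starts with RPL, RPS or RPLP and a digit, and RPSA, leaving out the ribosomal S6 kinases. This gave 81 of the 21257 genes in the deposited table, and 80 of them passed the filter on low counts among 13319 genes that did. Of the 80, 47 belong to the large subunit and 31 to the small subunit. The other 2, RPL7L1, an assembly factor of the large subunit, and RPS19BP1, a regulator of the deacetylase SIRT1 in human cells, carry such a symbol without being known as structural proteins and were counted apart. The member left out by the filter was RPL10L, a retrogene copy of RPL10 that is used in the testis of mouse and human, which had 0 counts in each of the 12 libraries. The tested member with the fewest counts was RPL39, with 1213 over the 12 libraries.

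The sheep were 5 months old, and the study describes 36 of them, 9 on each of 4 diets, fed for 60 days after a pretrial period of 10 days. The diets were the basal diet alone (control) and this diet plus succinate at 0.5% in SUC1, at 1% in SUC2 and at 2% in SUC3. RNA of 3 libraries per diet was sequenced, 12 in all. The labels do not say if 1 sheep or several went into a library, and the p-values thus describe how far libraries differ, part of which may be technical. No genotype or other treatment was named, and the basal diet was common to all 4 groups.

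Ribosomal proteins are made in near-equal numbers, since each ribosome holds a single copy of nearly all of them. Their mRNAs start with a terminal oligopyrimidine tract, a run of C and U at the cap through which mTOR signalling raises or lowers the translation of all of them together. In striated muscle one large subunit protein has a tissue form: RPL3L takes the place of RPL3 in part of the ribosomes. Work on mouse muscle has linked RPL3L to muscle growth and to the heart.

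Total counts were 15742428 to 18564057 per library, mitochondrially encoded genes took 7.48% to 15.6% of them, and the scaling factors of the TMM method lay between 0.857 and 1.10. Of 10 skeletal muscle markers fixed for the check, 9 had a row under their symbol, all 9 had at least 3 counts in every library, and together they made 139930 to 223674 CPM, the read count set to a library total that TMM has scaled. For the ribosomal protein genes SUC2 replicate 2 stood apart as high, and SUC3 replicate 1 and SUC2 replicate 3 as low, as described below. Many results below are also given without single libraries, and some without SUC2 replicate 2 and SUC3 replicate 1 together. A library holds RNA of all cell types of the muscle, so fewer cells of a type and less RNA per cell cannot be told apart.

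Levels per length differed widely between members. The unit is the deposited FPKM, which is the count divided by gene length and library total. Median FPKM, taken over the genes' means of 12 libraries, was 274 in the large subunit and 312 in the small subunit. RPLP1, an acidic protein of the stalk that recruits elongation factors, had the highest mean, at 1939 FPKM, and was 30th of all genes in the table. It was followed by RPS2, a small subunit protein near the mRNA entry, at 1043 FPKM, and by RPL23A, which lies at the exit of the nascent chain tunnel, at 827 FPKM. RPS2 had 854 to 1240.3 FPKM over the libraries, so it was below RPLP1 in each of them, where RPLP1 ranged from 1476 to 2605 FPKM. Some of the low members are given here, which are not a ranking of the lowest: RPL22L1 averaged 15.0 FPKM, RPL26L1 15.2 FPKM and RPL39 15.7 FPKM. The ranges of these 3 genes over the libraries overlapped, so their order among themselves is not given by these data.

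Proteins that pair with each other in the ribosome were not always matched in these FPKM values. RPLP1 and RPLP2, which pair with each other in the stalk, averaged 1939 FPKM and 110.3 FPKM. RPLP0, the stalk base that holds them, averaged 614 FPKM. Short members were not lower as a group: the 16 structural members under 500 bases had a median of 307 FPKM and the 62 longer ones 283 FPKM. RPL21, the longest member as listed, with 2320 bases, was at 82.1 FPKM. Reads that fit several near-identical genes can be lost or moved in counting, and such genes are described further below.

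**Figure D1:**
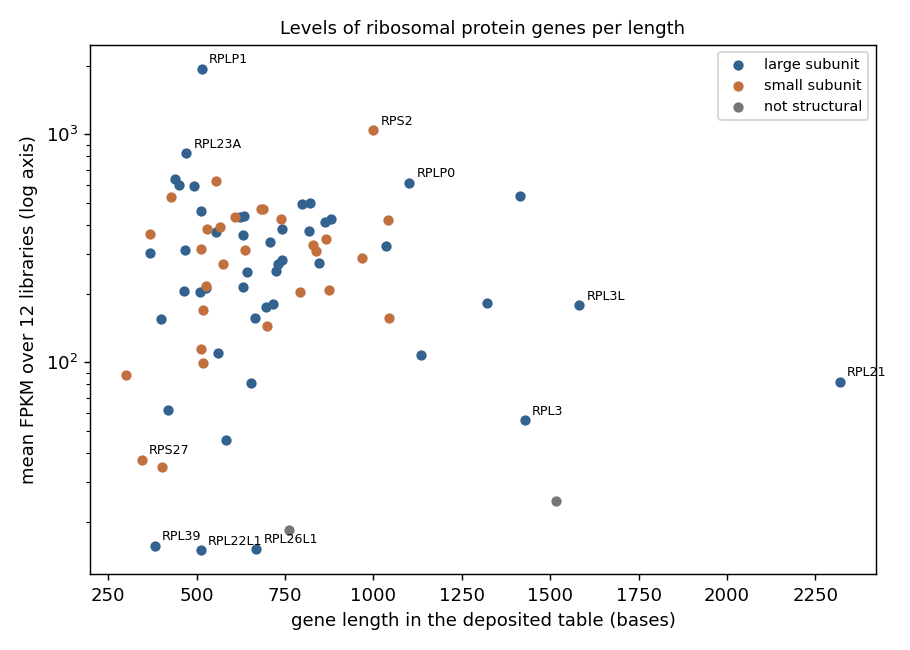
Mean FPKM over 12 libraries (log axis) against gene length in bases, 1 point for each of 78 of the 80 tested members, blue for the large subunit, orange for the small subunit and grey for the 2 genes that are not structural. RPLP1 lies highest at 1939 FPKM, and RPL22L1, RPL26L1 and RPL39 lie low at 15.0 to 15.7 FPKM.

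RPL3L had a higher level per length than RPL3 in every library. In control libraries RPL3L had 197, 189 and 159 FPKM and RPL3 had 47.2, 58.0 and 48.9 FPKM. In SUC1 RPL3L had 178, 178 and 163 FPKM and RPL3 had 52.4, 56.0 and 51.6 FPKM. In SUC2 RPL3L had 184, 182 and 129.7 FPKM and RPL3 had 51.3, 69.4 and 51.3 FPKM. In SUC3 RPL3L had 193, 178 and 201 FPKM and RPL3 had 58.2, 60.0 and 65.2 FPKM. The lowest value of RPL3L was therefore above the highest value of RPL3.

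The ratio of RPL3L to RPL3 within a library ranged from 2.53 in SUC2 replicate 3 to 4.17 in control replicate 1, with a median of 3.21. The control libraries averaged 3.56 ± 0.53, the SUC1 libraries 3.24 ± 0.14, the SUC2 libraries 2.91 ± 0.59 and the SUC3 libraries 3.12 ± 0.19 (SD, n = 3 each). The ranges of all 4 diets overlapped. RPL3 also had the smallest spread of all members, an SD of 0.14 on the log2 CPM scale over 12 libraries, followed by RPS2 with 0.19 and RPL3L with 0.20. RPL3L lies on chromosome 24 from 2031114 to 2038290 on the minus strand, in the coordinates of the deposited table, whose build is not named in it. The RPS2 gene starts at 2042756 on the same chromosome and strand, and RPL3 lies on chromosome 3 from 216565959 to 216572319.

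**Figure D2:**
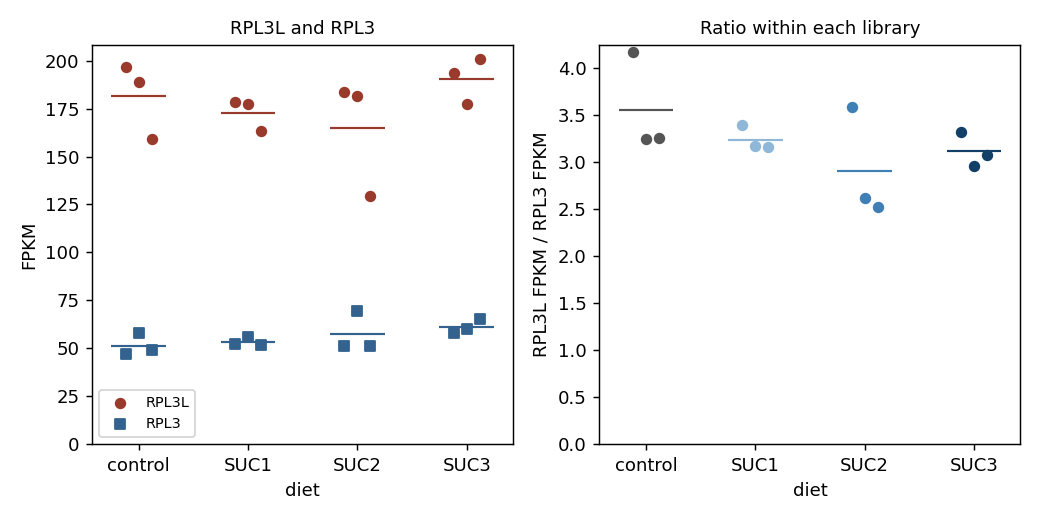
Left, FPKM of RPL3L (red circles) and RPL3 (blue squares) in each library by diet, with lines at the mean of 3 libraries; right, the ratio of both within each library, with lines at the mean. RPL3L is above RPL3 in all 12 libraries, with ratios between 2.53 and 4.17.

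Paralogs of 3 other ribosomal proteins were set beside their parent genes in the same way. RPS27L, a p53-induced form of RPS27, exceeded RPS27 in each library, with ratios from 1.58 to 4.29, both ends of which were control libraries. RPL22L1 was at 0.0487 to 0.0913 of RPL22, and RPL26L1 at 0.0443 to 0.0921 of RPL26. Copies of the parent genes under placeholder identifiers, described further below, are left out of these ratios. They held 51.9% of the summed counts of RPL26 and its copy, and 25.7% of those of RPS27 and its copies. The lowest RPL26L1 ratio was in control replicate 2, where RPL26 was highest and its copy lowest. RPL36AL, a second gene for the RPL36A protein, averaged 45.5 FPKM and RPL36A itself, listed under a placeholder identifier, 125 FPKM.

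Most members were high or low together in the same libraries, within diets as well as between them. Each member's log2 CPM was set against its own mean over 12 libraries, and the median of these deviations was taken per library. It was 0.27, 0.27 and -0.20 in the 3 control libraries. It was -0.10, 0.17 and -0.02 in SUC1, and -0.13, 0.56 and -0.39 in SUC2. In SUC3 it was -0.41, -0.14 and 0.20. Libraries of every succinate diet lay on both sides of 0, as did the control libraries.

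Both subunits followed this pattern. SUC2 replicate 2 had a median deviation of 0.53 for the large and 0.59 for the small subunit, SUC2 replicate 3 of -0.37 and -0.42, and SUC3 replicate 1 of -0.41 and -0.42. SUC2 replicate 2 was the highest library for 69 of the 80 members, while it was the highest for 14.9% of all genes tested. SUC3 replicate 1 was the lowest library for 43 members (13.5% of all genes) and SUC2 replicate 3 for 26 (11.6% of all genes). The summed counts of the members made 2.56% of SUC2 replicate 2, 1.34% of SUC2 replicate 3 and 1.39% of SUC3 replicate 1, and 1.56% to 2.25% of the other 9 libraries.

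The 11 members that did not peak in SUC2 replicate 2 included RPL3, RPS2 and RPSA, the laminin receptor of the small subunit, which were highest in SUC3 replicate 3. RPL3L, RPLP2, RPS16 and RPS3A were highest in control replicate 1, RPL26 and RPS19BP1 in control replicate 2, RPL37A in SUC1 replicate 2 and RPL6 in SUC1 replicate 3. The median SD of log2 CPM over 12 libraries was 0.33 for the members and 0.37 for all genes tested. Of the 80 members 63 were below 0.37. The genes were not matched for level, so this difference cannot be read as a trait of the members. RPL36, RPL6, RPL37A, RPL39 and RPS13 had the largest SDs, at 0.88, 0.62, 0.52, 0.49 and 0.47.

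Markers of other cell types also differed between these libraries. Of 12 immune markers 11 had a row and 7 had at least 3 counts in every library, and the 11 summed to 57.0 CPM in SUC2 replicate 2, the highest of all libraries, and to 18.5 to 46.6 CPM elsewhere. The 7 endothelial markers, each with at least 3 counts in every library, summed to 718 CPM in SUC3 replicate 1, the highest, to 568 CPM in SUC2 replicate 3 and to 277 CPM in SUC2 replicate 2, against 269 to 459 CPM in the other libraries. The 10 fibroblast and matrix markers summed to 537 to 2057 CPM and the 7 adipocyte markers to 110.7 to 377 CPM over all libraries, with no defining marker at 0. The part of these cell types in the level of the ribosomal protein genes was not tested.

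**Figure D3:**
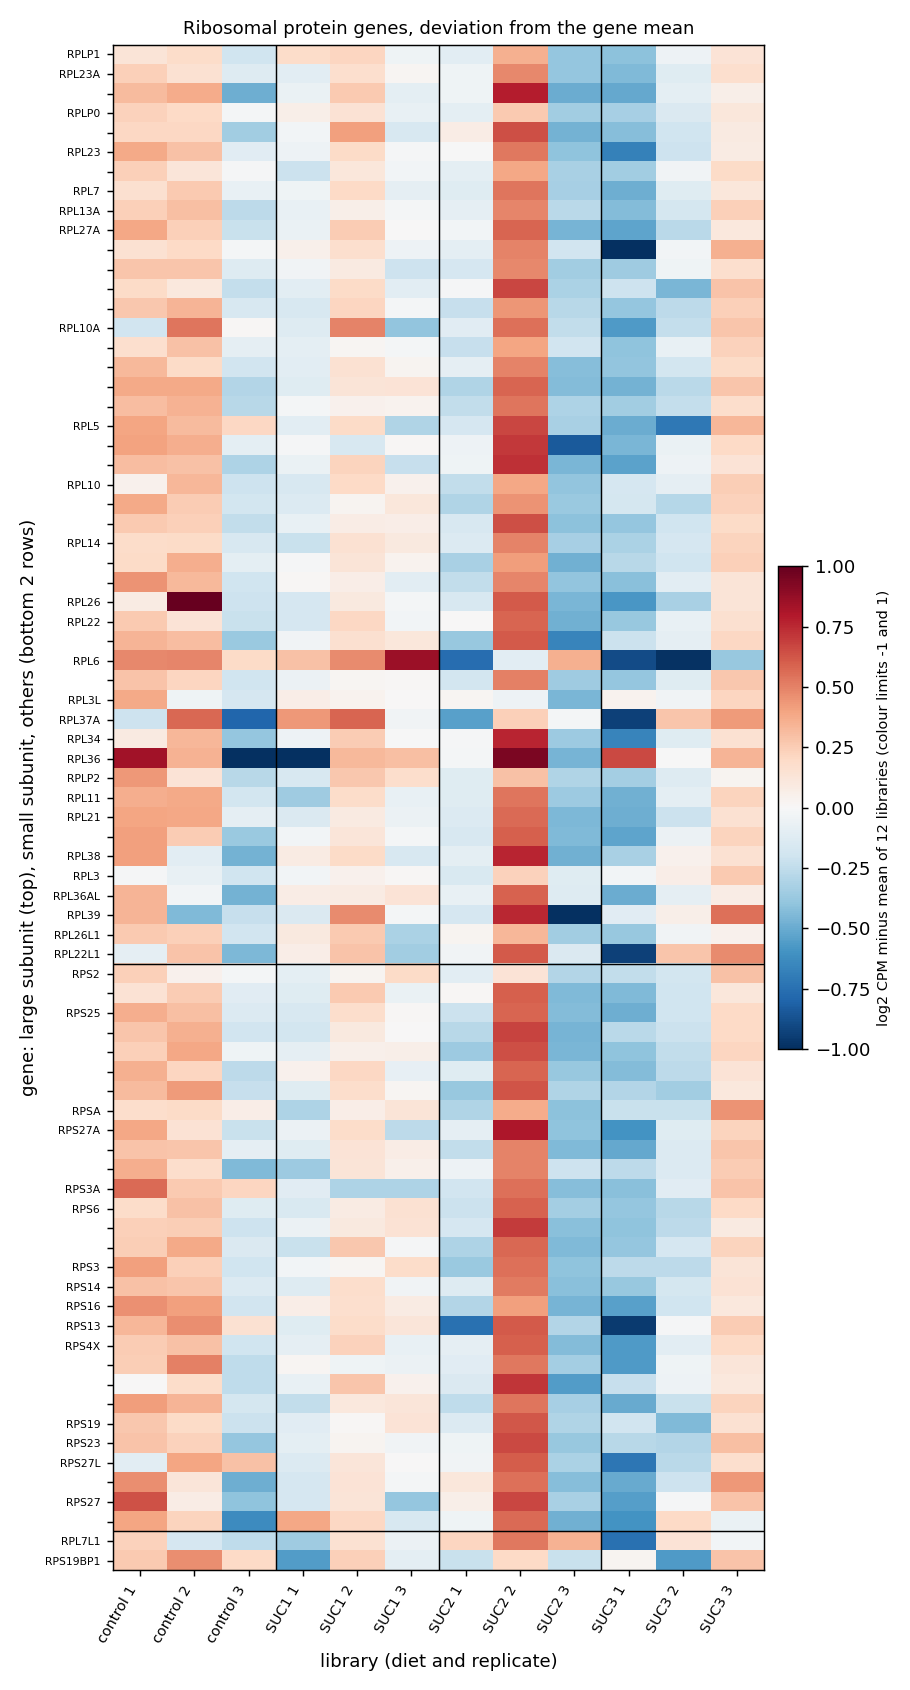
Deviation of 78 of the 80 members (rows, with names at those described in the text; large subunit above, then small subunit, then the 2 others, each in order of mean FPKM), each from its own mean log2 CPM over 12 libraries (columns, by diet and replicate), red for higher and blue for lower, with colours limited to -1 and 1. The column of SUC2 replicate 2 is red for nearly all rows, with a median of 0.56, and SUC3 replicate 1 and SUC2 replicate 3 are blue, with medians of -0.41 and -0.39.

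SUC1 against control asks what the lowest succinate level changed in these genes, and 0 of 80 members passed at an adjusted p under 0.05 by edgeR's quasi-likelihood test with Benjamini-Hochberg adjustment over all genes, where 0% of all genes passed. Unadjusted p-values were under 0.05 for 1 member, against 7.61% of all genes, and DESeq2 and limma called 0. A negative log2 fold change was found in 68 of 80 members, against 51.7% of all genes tested, with a median of -0.10 for the members and -0.01 for all genes. By subunit the median was -0.09 in the large and -0.13 in the small subunit. The median over the members depended on single libraries: it was -0.03 without control replicate 1, -0.04 without control replicate 2, -0.24 without control replicate 3, -0.06 without SUC1 replicate 1 and -0.17 without SUC1 replicate 2. All 3 comparisons with control share the same 3 control libraries, so their members' values are not independent of each other.

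RPS3A, a small subunit protein at the mRNA exit side, had the smallest p in SUC1. It had 269.9, 236 and 235 CPM in SUC1, against 432, 350.3 and 339 CPM in control, and the groups did not overlap. Its log2 fold change was -0.60 ± 0.25 (SE), with an adjusted p of 0.592 by edgeR. Copies of RPS3A under placeholder identifiers held 25.3% of the summed counts, and the sum with them was 369, 400 and 403 CPM in SUC1, against 484, 470 and 365 CPM in control. The groups of the sum overlapped, and its log2 fold change was -0.17. RPL5, which carries the small rRNA of the large subunit together with RPL11, had 299.9, 369 and 262 CPM in SUC1, against 425, 401 and 374 CPM in control (log2 fold change -0.37 ± 0.30, edgeR adjusted p = 0.863). These were the 2 members that were lower in every SUC1 library than in every control library, against 6.81% of all genes, and 0 members were higher in every library, against 7.4% of all genes. With copies summed, RPL5 was the 1 member left that was lower in every SUC1 library. RPS19BP1, RPL26 and RPL21 were next by p, with log2 fold changes of -0.42, -0.42 and -0.28. RPL26 came to 0.03 without control replicate 2 and to -0.03 with its copy summed, and RPS19BP1 to -0.63 without SUC1 replicate 2 and -0.23 without SUC1 replicate 1. In this comparison 10 of 10 fibroblast and matrix markers and 8 of 8 immune markers had a positive log2 fold change, with medians of 0.76 and 0.33, and none passed; their part in the members' values was not tested.

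SUC2 against control was the comparison with the most calls over all genes, 1.43%, and edgeR called 0 of the 80 members. Unadjusted p-values were under 0.05 for 0 members, against 17.9% of all genes, and DESeq2 and limma called 0. A negative log2 fold change was found in 56 of 80 members (50.2% of all genes), with a median of -0.08, and of -0.08 and -0.07 in the large and small subunit. No member was lower in every SUC2 library than in every control library (10.6% of all genes) and none was higher (11.5% of all genes). The median took either sign: it was -0.38 without SUC2 replicate 2, with 79 members negative, and 0.11 without SUC2 replicate 3, with 20 members negative. It was -0.02 without control replicate 1, 0.00 without control replicate 2, -0.21 without control replicate 3 and 0.02 without SUC2 replicate 1. With library totals as the only scaling it was -0.00, with 41 members negative.

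The members with the smallest p in SUC2 were RPL6, a large subunit protein, at a log2 fold change of -0.50 ± 0.27 (edgeR adjusted p = 0.363), and RPL7L1, at 0.42 ± 0.23 (edgeR adjusted p = 0.377). RPL7L1 had 42.2, 52.5 and 46.4 CPM in SUC2, against 42.8, 32.4 and 30.5 CPM in control, and the lowest SUC2 value was below the highest control value. RPS19BP1, RPS3A and RPS16 followed at -0.38, -0.32 and -0.32. These values moved with single SUC2 libraries. RPL6 was at -0.25 without SUC2 replicate 1 and -0.79 without SUC2 replicate 3. RPS3A was at -0.66 without SUC2 replicate 2 and -0.13 without SUC2 replicate 3, and at -0.12 with copies summed. RPS16 was at -0.63 without SUC2 replicate 2 and -0.15 without SUC2 replicate 3.

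SUC3 against control asks what the highest succinate level changed, and again 0 of 80 members passed by edgeR, where 0.00751% of all genes passed. Unadjusted p-values were under 0.05 for 1 member, RPL6, against 12.4% of all genes. DESeq2 called 1 member, RPL6, where it called 241 genes over all genes, and limma called 0 members. A negative log2 fold change was found in 75 of 80 members, against 51% of all genes. These were 42 of 47 in the large subunit, all 31 in the small subunit and both genes counted apart. The median was -0.24 over the members, -0.22 in the large and -0.26 in the small subunit, and -0.01 over all genes. In the same comparison 7 of 7 endothelial, 7 of 7 adipocyte and 9 of 10 fibroblast and matrix markers had a positive log2 fold change, with medians of 0.89, 1.08 and 0.64, and none passed. Their part in the lower values of the members was not tested. The medians of single libraries varied with an SD of 0.33 within diets on the same log2 scale. The median of -0.24 compares groups of 3 libraries, so its size cannot be set directly against this SD.

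The SUC3 median kept its negative sign in each alternative that was run, between -0.41 and -0.10, and its size moved with single libraries. It was -0.10 without SUC3 replicate 1, with 63 members negative, -0.41 without SUC3 replicate 3, -0.15 without control replicate 1 and -0.36 without control replicate 3. RPL6 alone was lower in every SUC3 library than in every control library, against 8.88% of all genes, and 0 members were higher, against 9.15% of all genes. The 5 members with a positive value included RPL39 at 0.27, RPL3 at 0.20, RPL36 at 0.13 and RPL37A at 0.07. The direction of RPL36 and RPL37A depended on the counting of copies and on control replicate 3: with copies summed they were at -0.33 and -0.10, and without control replicate 3 at -0.25 and -0.19. With copies summed 77 of 80 members were negative.

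RPL6 had the log2 fold change farthest from 0 of all members in SUC3. It had 314, 315 and 256 CPM in control, 274, 311 and 405 CPM in SUC1, 132, 208 and 287 CPM in SUC2, and 121, 113 and 173 CPM in SUC3. All 3 SUC3 libraries were below every control library and every SUC1 library (6.06% of all genes for the comparison with SUC1), while the SUC2 libraries overlapped with each other diet. Against control the log2 fold change in SUC3 was -1.12 ± 0.27, a ratio of 0.459 (edgeR adjusted p = 0.165). Against SUC1 it was -1.29 ± 0.27 (edgeR adjusted p = 0.311), and against SUC2 -0.63 ± 0.27 (adjusted p = 0.393). Per percent of succinate the slope was -0.64 ± 0.14 on the log2 scale (edgeR adjusted p = 0.173). By DESeq2 the adjusted p was 0.0107 for SUC3 against control, 0.00419 for SUC3 against SUC1, 0.0017 for any difference among the diets and 0.00418 for the slope. Over all genes, DESeq2 called 241, 65, 798 and 124 in the same tests, in that order. With edgeR the adjusted p for SUC3 against control ranged from 0.125 to 0.437 over the alternatives that used it. RPL6 lies on chromosome 17 from 61984793 to 61989846 on the plus strand.

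The next members by p in SUC3 were RPL26, RPL5, RPS16 and RPL23, with log2 fold changes of -0.62, -0.53, -0.44 and -0.43 and edgeR adjusted p of 0.461 to 0.503. RPL26, which lines the tunnel exit, had 70.3, 83.7 and 115 CPM in SUC3, against 111, 209.7 and 91.2 CPM in control. One control library was far above the others, and without control replicate 2 the value was -0.18, while with its copy summed it was -0.27. RPL5 had 229, 197 and 406 CPM in SUC3, against 425, 401 and 374 CPM in control, so SUC3 replicate 3 lay within the control range. Its log2 fold change was -0.91 without SUC3 replicate 3 and -0.33 without SUC3 replicate 2. Without SUC3 replicate 1, RPS16 was at -0.29 and RPL23 at -0.26.

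The members listed in this paragraph are part of those picked for a known role. They had values between -0.33 and -0.02 in SUC3, where the median of all members was -0.24. This range leaves out other picked members, such as the paralogs RPS27L and RPL22L1. There, RPL11, which with RPL5 binds MDM2 when assembly is disturbed, had a log2 fold change of -0.30. RPS6, the substrate of the ribosomal S6 kinases, had -0.26, and RPS19 and RPS14, whose genes are affected in human anaemias with failing ribosome assembly, had -0.24 and -0.28. RPS27A, made as a fusion with ubiquitin, had -0.25, and RPSA -0.11. RPL13A, which can leave the ribosome to silence mRNAs in human monocytes, had -0.21, and RPL38, needed for translation of Hox mRNAs in mouse embryos, had -0.02. RPL10 and RPS4X, both on the X chromosome, had -0.06 and -0.26, and RPS3, RPS25, RPL7 and RPL22 had -0.29, -0.33, -0.27 and -0.15. The stalk proteins RPLP0, RPLP1 and RPLP2 had -0.25, -0.14 and -0.27. None of these passed. Without SUC3 replicate 1 the value was -0.14 for RPL11, -0.18 for RPS25 and 0.01 for RPSA. RPL10 took either sign without single libraries, between -0.20 and 0.08, as did RPL38, between -0.19 and 0.25.

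**Figure D4:**
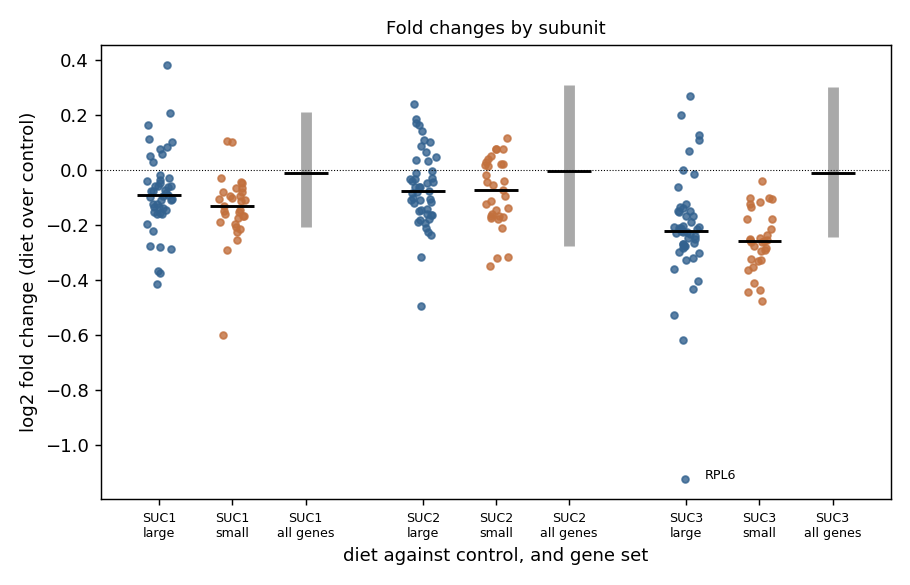
Log2 fold change of each diet over control, 1 point per structural member, for the large subunit (blue) and the small subunit (orange), with a black line at the median; grey bars run from the lower to the upper quartile of all genes tested, with their median. In SUC3 all 31 small subunit points are below 0 and the medians are -0.22 and -0.26, and RPL6 is lowest at -1.12.

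Between the succinate diets, 0 of 80 members passed in SUC2 against SUC1 (0% of all genes), 0 in SUC3 against SUC1 (0% of all genes) and 0 in SUC3 against SUC2 (0.015% of all genes) by edgeR. Members at an unadjusted p under 0.05 numbered 1, 1 and 2, against 8.57%, 7.31% and 11.5% of all genes. DESeq2 called 0, 1 and 0 members, the 1 being RPL6, where it called 42, 65 and 239 genes over all genes. No member was called by limma. The medians over the members were 0.05, -0.13 and -0.16 in that order, and each took the other sign without 1 library. SUC2 against SUC1 was at -0.27 without SUC2 replicate 2, and SUC3 against SUC1 at 0.01 without SUC3 replicate 1. SUC3 against SUC2 was at 0.14 without SUC2 replicate 2, and at 0.28 without both SUC2 replicate 2 and SUC3 replicate 1. The last setting kept SUC2 replicate 3, which was also low for the members. RPL6 had the smallest p in each of the 3. RPL7L1 was higher in every SUC2 library than in every SUC1 library, where it had 28.5 to 40.5 CPM (7.23% of all genes). It was lower in every SUC3 library (7.46% of all genes), at 21.7, 40.1 and 35.7 CPM, than in SUC2, at 42.2, 52.5 and 46.4 CPM (log2 fold change -0.53 ± 0.23, edgeR adjusted p = 0.400). It was at -0.31 without SUC3 replicate 1. RPL37A, RPS3A and RPS27 were next in SUC2 against SUC1, at -0.42, 0.28 and 0.32. With copies summed RPL37A turned to 0.05 and RPS3A was at 0.05, and without SUC2 replicate 2 RPS3A was at -0.06 and RPS27 at 0.01. RPS16, RPLP2, RPL23 and RPL27A were next in SUC3 against SUC1, at -0.29, -0.25, -0.28 and -0.28, and RPS27L, RPL36AL and RPL34 in SUC3 against SUC2, at -0.36, -0.32 and -0.38. Without SUC3 replicate 1, RPS16, RPL23 and RPL27A were at -0.14, -0.10 and -0.14 against SUC1, and without SUC2 replicate 2, RPS27L, RPL36AL and RPL34 were at -0.06, -0.05 and 0.01 in SUC3 against SUC2.

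In the test of any difference among the 4 diets 0 members passed by edgeR (0.0225% of all genes), and RPL6 had the smallest p (adjusted p = 0.117), followed by RPL7L1, RPS3A, RPL26 and RPS19BP1. On the slope over the succinate percent 0 members passed by edgeR (0.00751% of all genes). The slope was negative for 76 of 80 members, against 50.7% of all genes, with a median of -0.11 per percent of succinate, and all 31 small subunit members were negative. RPS16, RPL26, RPL23 and RPL5 followed RPL6, with slopes of -0.22, -0.27, -0.20 and -0.22. Without SUC3 replicate 1 the median slope was -0.04 and RPL23 was at -0.11, without SUC3 replicate 3 the median was -0.18 and RPL5 was at -0.39, and without control replicate 2 RPL26 was at -0.10. Without SUC2 replicate 2 and SUC3 replicate 1 together the median slope was -0.07, with 71 of 80 members negative. Unadjusted p-values were under 0.05 for 1 member in each of these tests, against 14.7% of all genes for any difference and 10.8% for the slope. DESeq2 called 1 member in each, RPL6, where it called 798 and 124 genes over all genes, and limma called 0 members.

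Ribosomal protein genes have many near-identical copies in mammalian genomes, and reads can be moved between a gene and its copies in counting. The table listed 217 genes under placeholder identifiers whose description names the same protein as a member. Of these 148 had counts and 65 passed the filter, they belonged to 56 members, and together they held 5.36% of the counts of members and copies. For 13 members at least 10% of the summed counts lay in copies, with RPL26 at 51.9%, RPL36 at 43.5%, RPS23 at 43.4% and RPL14 at 29.7% the highest. Single libraries differed sharply in some copies: 15 of the 65 tested copies ranged at least 10-fold over the 12 libraries, as did 8.06% of all genes tested and 0 of the members.

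RPL36, the member with the largest spread, had 96.8, 68.9 and 25.1 CPM in control, 12.1, 67.9 and 66.8 CPM in SUC1, 53.4, 104 and 39.2 CPM in SUC2, and 85.5, 54.1 and 68.4 CPM in SUC3. Its copy LOC101103232, on chromosome 5 from 10705783 to 10706171, had 84.8 CPM in SUC1 replicate 1, where RPL36 was lowest, and 1.01 CPM in SUC3 replicate 1. In the other libraries this copy had 34.1 to 67.2 CPM. The sum of RPL36 and its copies ranged from 81.9 to 165 CPM, and the SD on the log2 scale was 0.31 for the sum and 0.88 for RPL36 alone.

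RPL37A also had copies that differed sharply between libraries. Its copy LOC114109518 had 79.5 CPM in SUC2 replicate 1 and 1.48 to 9.57 CPM in the other libraries, and its copy LOC101123533 had 9.71 to 46.8 CPM in 5 libraries, 2 of control and 1 of each succinate diet, and at most 0.327 CPM in the other 7. The SD was 0.35 for the sum and 0.52 for RPL37A alone. The RPL5 copy LOC101118481 had 87.8 CPM in SUC1 replicate 3 and 69.8 CPM in SUC3 replicate 2, the lowest RPL5 libraries of their diets, and 0.837 to 2.07 CPM in the other 10. For RPL26 and its copy LOC101104237 the SD was 0.33 for the sum and 0.44 for RPL26 alone, and control replicate 2, the highest library for RPL26 at 209.7 CPM, was the lowest for the copy at 60.7 CPM. The RPL10A copies LOC114114996 and LOC101107597 were at 0.615 and 0.246 CPM in SUC1 replicate 2 and at 31.0 to 135 and 11.3 to 56.2 CPM elsewhere.

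For RPL6 the main copy, LOC101109212 on chromosome 19 from 43017764 to 43018702, had 37.8, 36.3 and 55.0 CPM in SUC3, against 31.0, 31.8 and 24.2 CPM in control, and was at 2.75 CPM in SUC1 replicate 3 and 1.36 CPM in SUC2 replicate 3. The sum over RPL6 and its 9 copies was 164, 156 and 238 CPM in SUC3, against 349, 356 and 287 CPM in control, and the groups still did not overlap. Its log2 fold change was -0.83 (edgeR adjusted p = 0.197) and -1.12 for RPL6 alone. In SUC2 the sum was 181, 294 and 290 CPM, below every SUC1 library, at 306, 348 and 410 CPM. For RPL6 alone these 2 diets overlapped. The log2 fold change of the sum in SUC2 against SUC1 was -0.47 (edgeR adjusted p = 0.598). Of 13319 genes tested, 856 were lower in every SUC2 library than in every SUC1 library. Over all members with a copy, the SD of the sum was smaller than that of the gene alone in 23 of 56. The 56 include members with 0% of the summed counts in copies, such as RPL22 and RPS7, whose SD could not change. The median over the members in SUC3 was -0.23 with copies summed. Whether the copies are expressed or differ in sequence between animals was not tested.

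**Figure D5:**
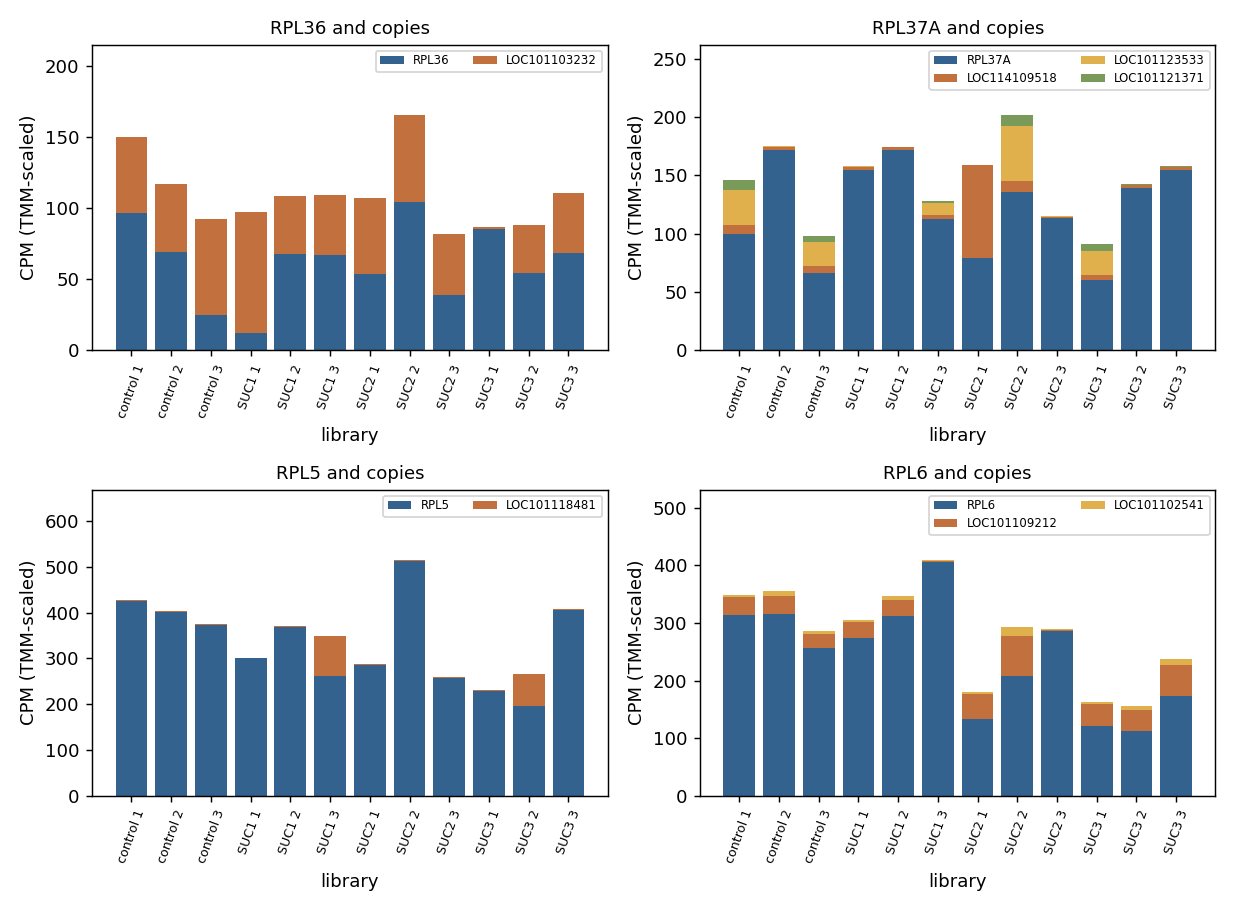
TMM-scaled CPM of 4 members (dark blue) stacked with their copies under placeholder identifiers (other colours) in each library, by diet and replicate. RPL36 is lowest at 12.1 CPM in SUC1 replicate 1, where its copy has 84.8 CPM, and the stacked bars of RPL36 range from 81.9 to 165 CPM.

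Structural proteins whose genes carry other names were checked in the same libraries. FAU, the precursor of a small subunit protein, RACK1, the small subunit scaffold, and RPL36A averaged 176, 485 and 125 FPKM. None passed against control. In SUC3 their log2 fold changes were -0.38, -0.17 and -0.25, and all 3 were highest in SUC2 replicate 2. RPL17, RPS28 and RPL41 had no row under their symbol and were not analysed here.

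Genes that make ribosomes or use them were counted from lists drawn up with earlier results of these data known. Of 41 genes of ribosome assembly and rRNA processing, 1 rose and 0 fell in SUC2 against control, where 1.43% of all genes passed. In all, 34 of the 41 had a positive log2 fold change in SUC2, against 6627 of 13319 genes tested. The median of the list was 0.44 in SUC2, against -0.00 over all genes, and it was 0.07 in SUC1 and 0.12 in SUC3. How far these list medians depend on single libraries is not given here. The gene that rose was RRS1, an assembly factor of the large subunit, with 12.7, 30.0 and 19.1 CPM in SUC2, against 5.38, 9.42 and 4.99 CPM in control (log2 fold change 1.64 ± 0.36, edgeR adjusted p = 0.0432). Of 30 translation initiation factors, 1 rose and 0 fell in SUC2, with a median of 0.08. It was EIF4A1, the helicase that unwinds mRNA leaders, with 58.6, 94.2 and 75.8 CPM in SUC2, against 34.1, 25.5 and 31.9 CPM in control (log2 fold change 1.32 ± 0.21, edgeR adjusted p = 0.0213). Neither call held without single libraries: EIF4A1 reached adjusted p of 0.0889 to 0.0966 without control replicate 2 or 3 or SUC2 replicate 3, and RRS1 of 0.0541 to 0.146 without any 1 control library, without SUC1 replicate 2, and without SUC2 replicate 2, SUC2 replicate 3, SUC3 replicate 1 or SUC3 replicate 3.

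Of 21 genes of RNA polymerase I and its factors, 0 passed in SUC2, and 14 were positive with a median of 0.19, among them RRN3, the initiation factor of this polymerase, at 0.67 ± 0.18 (edgeR adjusted p = 0.0793). Among 14 elongation factors and other mRNAs with the terminal oligopyrimidine tract 0 passed, with medians of -0.08, -0.04 and -0.05 in SUC1, SUC2 and SUC3. Among 28 genes of the mTOR pathway 0 passed, with medians of -0.06, -0.07 and -0.11, and DEPTOR, an inhibitor of mTOR, had 1.04 ± 0.31 in SUC2 (edgeR adjusted p = 0.102). In SUC1 and SUC3 no gene of these lists passed. All 8 immune markers tested had a positive log2 fold change in SUC2, with a median of 1.09, and none passed; their part in the values of RRS1 and EIF4A1 was not tested.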

How the data were processed

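Per the labels, RNA of longissimus dorsi was sequenced for 4 diets with 3 libraries each. The authors deposited 1 table with whole-number read counts and FPKM values per gene. FPKM recomputed from counts, gene length and column totals differed by at most 5.11e-15 (relative). The aligner, the counting program and strand use: not given in the sources used here. GRCm38 and mm10, both mouse assemblies, are the builds in the submitters' processing notes, while the table holds sheep genes, so coordinates are printed as deposited. Chromosome labels and 1 gene symbol (RPL36A) came from the ARS-UI_Ramb_v3.0 gene table, in which 20874 of 21257 GeneIDs matched. No per-sample column was left unused. Within diets no pair of libraries held identical counts, and chi-square per degree of freedom was 32.1 to 93.4.

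Counts were fitted with edgeR 4.0.16 (R 4.3.3; filterByExpr, TMM, quasi-likelihood F test, two-sided) over all 12 libraries with diet as a factor, 8 residual degrees of freedom and a biological coefficient of variation of 0.279. P-values were adjusted (Benjamini-Hochberg) over 13319 genes at a threshold of 0.05. Standard errors were derived from the fold change and its F statistic. CPM are TMM-scaled. A floor of 3 counts was used for detection of markers. Alternatives were other scalings and filters, DESeq2 1.42.0, limma 3.58.1 on log2 CPM (prior count 2) or on log2(FPKM + 0.5) and log2(FPKM + 0.1), fits without each library, a replicate block and pairwise fits. Copies summed with their gene, and leaving out SUC2 replicate 2 and SUC3 replicate 1 together, were added after seeing the data. The fit was checked on simulated counts.

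The members, lists and rules were chosen with earlier results of these data known. Named were a panel of paralogs and well-known members, the 5 members with the smallest p per comparison where fewer than 5 passed, the 3 highest and 3 lowest by FPKM, context genes that passed, and up to 4 of a list by smallest p. RPL36 and RPL37A, the copies and the libraries that stood apart were chosen after their values were seen. Some genes that these rules name are not reported here.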

Additional observations from a re-analysis of the deposited data

How the results depend on the processing

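Over 25 alternatives (24 for the slope and for any difference), the count of members called was 0 in each comparison except with DESeq2, which called 1, RPL6, in SUC3 against control, SUC3 against SUC1, any difference among the diets and the slope. Leaving out single libraries gave 0 members in every comparison. The medians over the members then lay between -0.24 and -0.03 for SUC1, -0.38 and 0.11 for SUC2, and -0.41 and -0.10 for SUC3. No pairing of libraries by replicate number was visible. The correlation of deviations was -0.17 to 0.17 for the 18 pairs with the same number and -0.24 to 0.21 for the 36 others. These ranges cannot exclude a weak pairing, and the labels do not say what a number marks. With a replicate block 0 members were called, the SUC3 median was -0.22, and 122 genes in place of 191 were called over all genes in SUC2. Some signs turned, and the cause was not tested. RPL3L in SUC3 was at 0.00076 with RLE scaling, 0.00085 with DESeq2, 0.014 with limma on log2 CPM, 0.020 with a mean of at least 5 CPM, 0.017 with a replicate block, 0.020 without both SUC2 replicate 2 and SUC3 replicate 1, 0.069 with library totals only, 0.073 with either FPKM fit, and -0.10 to 0.18 without single libraries. RPL3 in SUC2 was at -0.048 without both of these libraries and -0.048 to 0.16 without single ones. Without single libraries RPL3L in SUC1 lay between -0.15 and 0.14, RPL6 in SUC1 between -0.011 and 0.28, RPL26 in SUC1 between -0.63 and 0.025, and RPL6 in SUC3 between -1.34 and -1.01. EIF4A1 in SUC2 lay between 1.14 and 1.48 and RRS1 between 1.26 and 1.99; RRS1 was not called in the pairwise fit (edgeR adjusted p = 0.0673) or without both libraries (0.0996). Calls over all genes moved more: DESeq2 called 70, 841 and 241 genes in SUC1, SUC2 and SUC3 against control, where edgeR called 0, 191 and 1. It called 42, 65 and 239 in SUC2 against SUC1, SUC3 against SUC1 and SUC3 against SUC2, where edgeR called 0, 0 and 2. For any difference it called 798, against 3 by edgeR, and for the slope 124, against 1. Without single libraries the edgeR counts were 0 to 7, 0 to 332 and 0 to 11 against control, 0 to 1, 0 to 2 and 1 to 66 between the succinate diets, 0 to 85 for any difference and 0 to 12 for the slope. With no filter beyond 1 count, edgeR called 105 genes for any difference, and 30 with library totals only. The tested member with the fewest counts, RPL39, had 1213 over the 12 libraries, so its values carry the largest counting error.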
